A study of Parasteatoda tepidariorum with 20 samples.

Results

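The step from stage (st) 3 to st4, when the germ disc takes shape, was described from 4 of the 20 RNA-Seq libraries of a developmental series of the common house spider *Parasteatoda tepidariorum*. The members are the 2 st4 libraries, collected 25 to 26 h after egg laying, and the 2 st3 libraries, collected 20 to 21 h after egg laying, chosen by the stage in their labels. All 4 held poly(A) mRNA of whole embryos of the Osaka isolate, kept at 25 °C, with no treatment and no genetic change. The embryos came from 2 pairs of parents, here series 1 and series 2, so each stage has n = 2, with 1 library per series. Each library was made from a pool of embryos, and the p-values therefore measure the spread between the series, not between embryos. Wherever a pair of values is given for a stage, series 1 stands first.

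Early animal embryos live on transcripts that the mother stored in the egg. These maternal transcripts are broken down while the embryo's own genome becomes active, an exchange called the maternal-to-zygotic transition. In this spider, nuclei reach the egg surface and the cells gather on one side of the yolk into a germ disc with radial symmetry. Its rim later forms anterior structures and its centre holds the first ingressing cells. Hedgehog signalling patterns the disc along its radial axis, Delta and Notch act on mesendoderm formation, and Dpp acts in dorsoventral patterning through the cumulus, a migrating group of cells.

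Abundance was deposited as RPKM, reads per kilobase of exon and scaled to the number of mapped reads, for 27990 AUGUSTUS gene models, of which 13375 passed a filter of at least 1 RPKM in at least 2 of the 20 libraries. The read totals recovered from the RPKM values were 10508754 to 11596008 at st4 and 9160802 to 10122300 at st3. For a gene model of median exon length, 3 reads correspond to 0.157 and 0.174 RPKM at st4 and 0.180 and 0.199 RPKM at st3, which covers counting error only. The st4 libraries correlated with each other at r = 0.975 across gene models on the log2(RPKM + 1) scale, and the st3 libraries at r = 0.956 (gene models are not independent replicates). As a check of the stage labels, genes of tissues that form later were summed. The 9 hemocyanin gene models summed to 0.224 and 1.45 RPKM at st4, against 0.997 and 12.1 RPKM at st3, while at st10 they reached 1145 and 1444 RPKM. The 90 gene models of cuticle and chitin summed to 6.08 and 4.68 RPKM at st4, against 23.4 and 37.5 RPKM at st3, with 69 and 71 of them at 0 at st4 and 63 and 56 at st3. Nerve genes (174 gene models) summed to 80.7 and 66.0 RPKM at st4, against 195 and 219 RPKM at st3, with 92 and 104 of them at 0 at st4 and 85 and 81 at st3. Muscle contractile genes (48 gene models) summed to 224 and 196 RPKM at st4 and 193 and 221 RPKM at st3. Nerve genes were highest at st1 (460.8 and 626.7 RPKM) and at st10 (122.9 and 116.8 RPKM) lay under their st3 sums. Cuticle and chitin genes had 27.2 and 34.6 RPKM at st10, near their st3 sums. Muscle genes had 337.93 and 445.95 RPKM at st1 and 492.51 and 392.76 RPKM at st10. Only the hemocyanins were thus far higher at st10 than at st3 and st4. Their sums at st8 were 14.3 and 11.8 RPKM, near the 12.1 RPKM of the series 2 library of st3. The sums of these lists cannot tell an st3 label from an st4 label. The higher cuticle and nerve sums at st3 move with the falls of such genes named further on, and their part in them was not tested. In whole embryos, fewer cells of a type and less RNA per cell cannot be told apart.

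At st4, 1166 gene models were higher than at st3 and 3545 were lower, 8.72% and 26.5% of those tested (limma on log2(RPKM + 1), Benjamini-Hochberg adjusted p under 0.05). All 1166 and all 3545 moved the same way in both series. The calls rest on the mean of these same 2 differences, which favours such agreement, so it is no separate support. The median change of all gene models was -0.26, with -0.196 in series 1 and -0.307 in series 2, so the typical RPKM was lower at st4. Changes here and below are differences of log2(RPKM + 1), st4 minus st3, ± the standard error of limma, and they understate the change of low genes. RPKM is a share of the reads, so a gain by some abundant transcripts lowers all others. Median-ratio scaling, which divides each library by its typical ratio to the mean library, moved the median to -0.011, a shift of 0.249. Then 2222 gene models were higher and 2811 were lower (16.6% and 21.0%), and the share of calls that were higher went to 44.1%, against 24.8% as deposited. All 2811 were among those lower as deposited and 1165 of the 1166 stayed higher, while 734 falls were called only as deposited and 1057 rises only after scaling. With 1 library left out, the number of rises was 697 without st4 of series 1, 776 without st4 of series 2, 871 without st3 of series 1 and 738 without st3 of series 2, and falls numbered 2451 to 3076. No gene model was called in opposite directions on the 2 scales. Neither scale measures RNA per embryo. By size, 175 gene models rose and 1020 fell by at least 2 on the log2 scale (4-fold), and after scaling 325 rose and 758 fell that far.

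**Figure D1:**
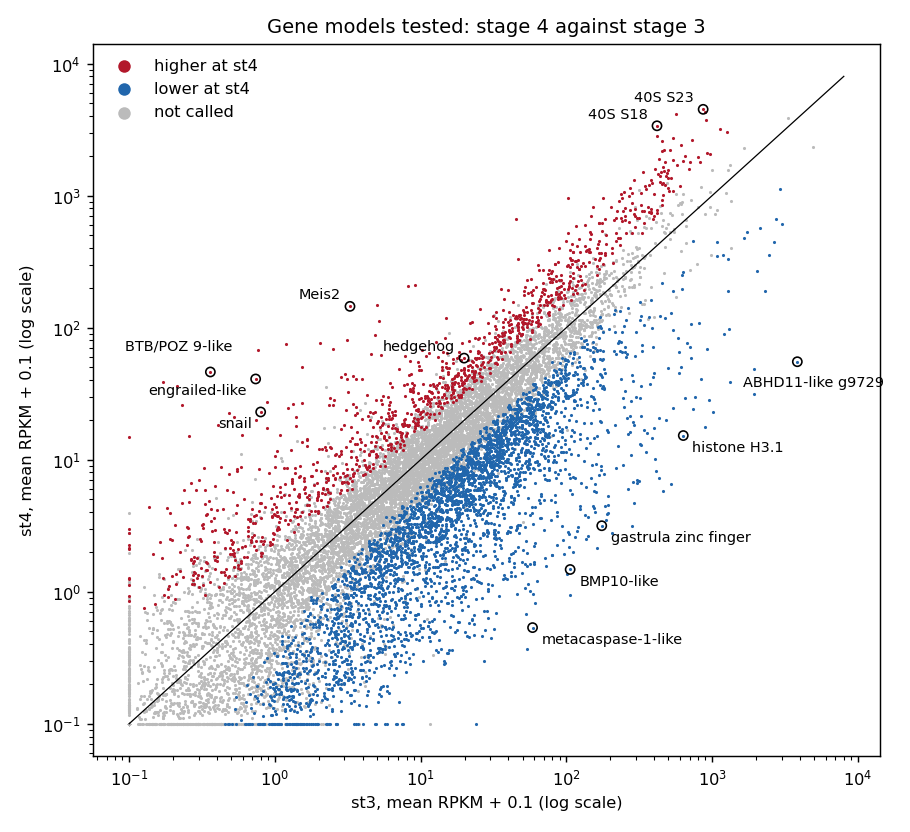
Mean RPKM + 0.1 of each gene model tested at st4 (vertical, log scale) and st3 (horizontal, log scale), n = 2 libraries a stage, with the line of equal values. Red points were higher at st4 (1166), blue points lower (3545) and grey points not called, and the circled gene models are described in the text.

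Transcripts that fell had mostly been present from the start. Of the 3545 gene models lower at st4, 92.5% had at least 1 RPKM in both st1 libraries, beside 68.3% of the 1166 that were higher and 75.6% of all tested. Their median level was 3.68 RPKM at st4, against 16.7 RPKM at st3. Of the fallen, 635 (17.9%) stayed at or under 1 RPKM in all 12 libraries from st5 early to st10, as did 12 (1.03%) of the risen and 1195 (8.93%) of all tested. Another 1850 of the fallen (52.2%) had at least 5 RPKM in both st10 libraries. For the risen this number was 870 (74.6%), and for all tested it was 57.2%. The choice of the sets favours such differences at st1 and after st4. A called fall needs expression at st3 and a called rise needs it at st4, while all tested include gene models that passed the filter through other stages. How much of the differences this explains was not tested. The median exon length was 1781 bp for the risen and 1944 bp for the fallen, against 1722 bp for all.

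The steepest loss among described gene models was that of transcripts annotated as ABHD11 or ABHD11-like, alpha/beta hydrolase domain proteins, which in mammals are mitochondrial. The most abundant, aug3.g9729 (scaffold 1062, 343158 to 352634, minus strand), had 18.2 and 91.9 RPKM at st4, against 3362 and 4319 RPKM at st3 (log2 change -6.50 ± 0.61, adjusted p = 1.6e-06). It had averaged 2579 RPKM at st1 and 4848 RPKM at st2, and it averaged 10.4 RPKM at st5 early. Both st4 libraries lay far under both st3 libraries, and the series 2 library kept more of it than that of series 1. On the same scaffold, aug3.g9728 had 1.09 and 5.01 RPKM at st4, against 206 and 358 RPKM at st3 (log2 change -6.27 ± 0.40, adjusted p = 4.6e-08). Nearby, aug3.g9725 had 0.844 and 4.49 RPKM at st4, against 152 and 257 RPKM at st3 (log2 change -5.96 ± 0.47, adjusted p = 2.9e-07). The same direction was measured in aug3.g9726 (0.247 and 0.819 RPKM at st4 and 24.5 and 33 RPKM at st3), aug3.g9727 (85 and 449.8 RPKM at st4 and 1287 and 2799 RPKM at st3) and aug3.g9723 (7.52 and 26.2 RPKM at st4 and 76.1 and 109 RPKM at st3). All 9 gene models tested on scaffold 1062, between 37746 and 352634, were lower at st4, and the 3 that are not ABHD11 are uncharacterized. After scaling 8 of the 9 were still called. Elsewhere, aug3.g3607 (scaffold 488, 50982 to 59884, minus strand) had 22.5 and 74.8 RPKM at st4, against 1396 and 2489 RPKM at st3 (log2 change -5.46 ± 0.42, adjusted p = 2.5e-07), and aug3.g23929 (scaffold 71, 62886 to 149399, plus strand) had 11.1 and 70.3 RPKM at st4, against 1001 and 664 RPKM at st3 (log2 change -4.79, adjusted p = 0.00023). The abundant aug3.g25958 had 354 and 346 RPKM at st4, against 748 and 1416 RPKM at st3, and its call (adjusted p = 0.023) was lost after scaling (0.13) and without either st4 library or st3 of series 2 (0.08 to 0.2). On that scaffold 2 calls also rested on single libraries: without st4 of series 1 the adjusted p was 0.19 for aug3.g9727 and 0.094 for aug3.g9723, and without st3 of series 2 it was 0.12 and 0.053. Of 49 ABHD11 gene models 19 were tested, with a median change of -1.56 beside -0.26 for all gene models. Of the 19, 1 was higher and 11 were lower (5.26% and 57.9%, beside 8.72% and 26.5% of all). After scaling the counts were 1 and 10. The ABHD11 group was put together after its values were seen, and how similar its sequences are was not examined. If copies share reads, the uniqueness filter may have dropped or split them, so single copies are uncertain.

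Other transcripts that nearly vanished belong to many kinds of proteins. A BMP10-like ligand of the TGF-beta family, aug3.g16925 (scaffold 2360, 10506 to 16988, plus strand), had 1.8 and 0.951 RPKM at st4, against 85.6 and 126 RPKM at st3 (log2 change -5.49 ± 0.28, adjusted p = 8.4e-09). Its st1 mean was 101 RPKM, and the st4 values of both series lay under 2 RPKM. Myotubularin-related protein 14, a phosphoinositide phosphatase, had 4.17 and 10.2 RPKM at st4, against 272 and 595 RPKM at st3 (log2 change -5.73 ± 0.49, adjusted p = 7.2e-07). MRVI1-like, named after a mammalian partner of the inositol trisphosphate receptor, had 4.38 and 2.42 RPKM at st4, against 225 and 149.8 RPKM at st3 (log2 change -5.43 ± 0.29, adjusted p = 1.5e-08). Calumenin, a calcium-binding protein of the secretory pathway, had 2.85 and 10.9 RPKM at st4, against 171 and 464 RPKM at st3 (log2 change -5.38 ± 0.59, adjusted p = 6.9e-06). In both of the last genes the stages lay well apart in both series, which their choice among the largest called falls favours. The LC3C-like protein, a member of the family that coats autophagosomes, had 5.91 and 7.24 RPKM at st4, against 339 and 268 RPKM at st3 (log2 change -5.32 ± 0.35, adjusted p = 6.9e-08). Bromodomain-containing protein 2, which binds acetylated histones, had 15.1 and 5.04 RPKM at st4, against 534 and 279.7 RPKM at st3 (log2 change -5.30 ± 0.53, adjusted p = 3.0e-06). A metacaspase-1-like gene model, from a family of cysteine proteases known from plants and fungi, had 0.636 and 0.234 RPKM at st4, against 54.9 and 62.1 RPKM at st3 (log2 change -5.38 ± 0.33, adjusted p = 3.8e-08), and its st4 values rested on 6 and 2 reads. The lipase aug3.g7776, annotated as a pancreatic triacylglycerol lipase, had 3.93 and 1.62 RPKM at st4, against 130.0 and 105 RPKM at st3 (log2 change -5.04, adjusted p = 7.7e-08). Each of these 8 was called after scaling too.

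Zinc finger genes that fell were single members of a large family. The gastrula zinc finger gene aug3.g26372 had 6.7 and 5.18 RPKM at st4, against 246 and 285 RPKM at st3 (log2 change -5.27 ± 0.27, adjusted p = 9.1e-09), from 1030.3 RPKM at st1. A relative, aug3.g11496, had 2.75 and 3.37 RPKM at st4, against 132 and 217 RPKM at st3 (log2 change -5.40 ± 0.25, adjusted p = 6.1e-09). It was nearly absent at st1 (0.286 RPKM) and averaged 108 RPKM at st2, so its transcripts appeared and were gone again within a few stages. Zinc finger protein 1-like had 6.34 and 9.07 RPKM at st4, against 139 and 222 RPKM at st3 (log2 change -4.36, adjusted p = 1.2e-07). Of 212 numbered zinc finger gene models tested, 10 rose and 27 fell (4.72% and 12.7%, both under the 8.72% and 26.5% of all), and the median change was 0.00. After scaling 39 rose and 15 fell. Within them, 58 gastrula zinc finger gene models had 3 rises and 5 falls (16 and 3 after scaling), a subset chosen after its values were seen.

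The 142 gene models that switched off, with at least 5 RPKM in both st3 libraries and at most 1 RPKM in both st4 libraries and a called change, made up 1.06% of those tested. This number depends on the levels chosen (52 with at least 10 RPKM at st3, 55 with at most 0.5 RPKM at st4) and on having both libraries (182 to 240 with 1 library of either stage left out). After scaling the number was 100. Together the 142 as deposited took 0.0171% and 0.0161% of the reads on gene models at st4, against 0.379% and 0.415% at st3 and 1.36% and 1.71% at st1. Of these, 130 (91.5%) had at least 5 RPKM in both st1 libraries, beside 61.3% of all tested. In every later library 88 (62.0%) stayed at or under 1 RPKM, beside 8.93% of all tested. Voltage-gated potassium channel KCNQ-like aug3.g23558 had 0.84 and 0.788 RPKM at st4, against 14.1 and 15.2 RPKM at st3 (log2 change -3.10, adjusted p = 2.1e-06), and 229 RPKM at st1. Synaptotagmin-6-like, from the family of calcium sensors of vesicle release, had 0.461 and 0.419 RPKM at st4, against 15.6 and 16.1 RPKM at st3 (log2 change -3.55, adjusted p = 7.4e-08). The ubiquitin ligase MARCH8-like aug3.g4514 had 0.437 and 0.386 RPKM at st4, against 17.4 and 37.5 RPKM at st3 (log2 change -4.24, adjusted p = 1.1e-06). Cuticle protein 10.9 had 0.161 and 0.356 RPKM at st4, against 8.7 and 16.6 RPKM at st3 (log2 change -3.38, adjusted p = 6.2e-07), on 1 and 2 reads at st4. Of the 142, 15 (10.6%) came back to at least 5 RPKM in both st10 libraries, a level that 57.2% of all tested had there. Among those, chosen after their values were seen, were a bcl-2-like regulator of apoptosis (0.619 and 0.341 RPKM at st4 and 13.8 and 29 RPKM at st3, 49.1 RPKM at st10), a high affinity copper uptake protein (0.555 and 0.417 RPKM at st4 and 12.6 and 23.5 RPKM at st3, 17.2 RPKM at st10) and a GILT-like thiol reductase (1 and 0.368 RPKM at st4 and 32 and 10.2 RPKM at st3, 15.5 RPKM at st10).

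**Figure D2:**
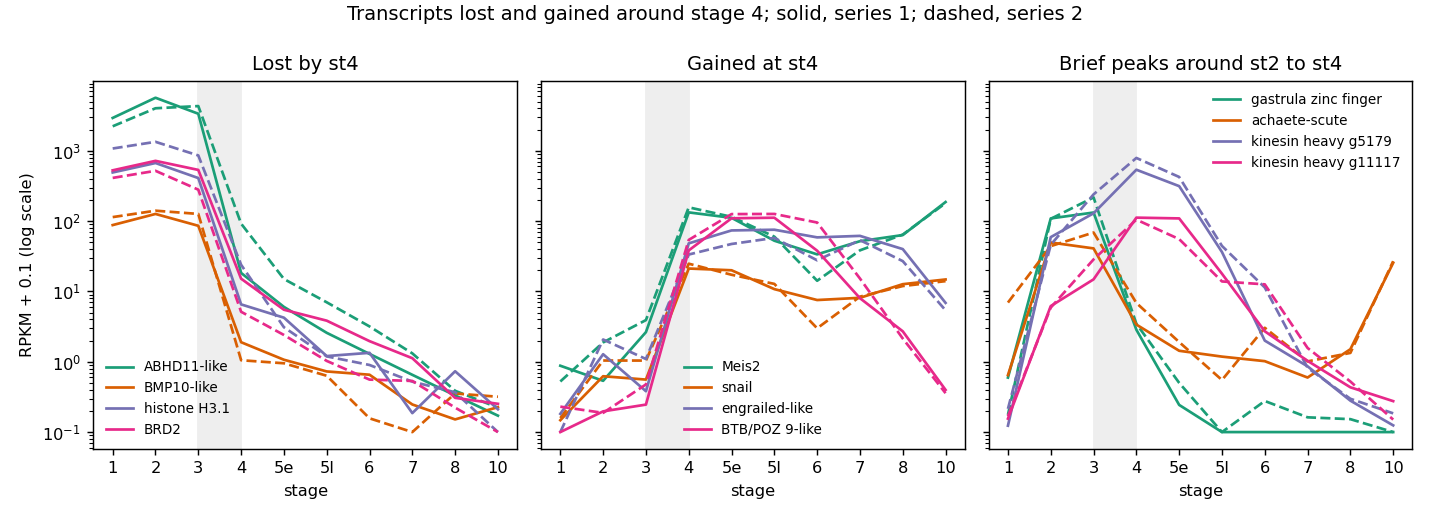
RPKM + 0.1 (log scale) of single gene models over the 10 stages in series 1 (solid) and series 2 (dashed), with the step from st3 to st4 shaded. The left panel holds transcripts abundant at st1 to st3 and under 100 RPKM at st4, the middle panel transcripts under 5 RPKM at st3 and over 20 RPKM at st4, and the right panel transcripts that peaked between st2 and st4.

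Histone transcripts, which package newly copied DNA, fell in part. Histone H3.1 aug3.g12364 (scaffold 1477, 38002 to 38684, minus strand) had 6.44 and 23.8 RPKM at st4, against 409 and 858 RPKM at st3 (log2 change -5.45 ± 0.53, adjusted p = 2.2e-06). Its neighbour H3 aug3.g12366 had 27.7 and 30.9 RPKM at st4, against 208 and 428 RPKM at st3 (log2 change -3.31 ± 0.36, adjusted p = 6.9e-06), and late histone H2B.L4-like, which is outside the histone list, had 4.8 and 6.32 RPKM at st4, against 173 and 148 RPKM at st3 (log2 change -4.63 ± 0.27, adjusted p = 2.9e-08). On scaffold 2519 a trio of adjacent core histones fell less. H2B aug3.g17398 had 601 and 529.7 RPKM at st4, against 2782 and 1468 RPKM at st3 (log2 change -1.84, adjusted p = 0.011), H2A aug3.g17399 had 439.5 and 518 RPKM at st4, against 1446 and 1845 RPKM at st3 (log2 change -1.77, adjusted p = 0.0019), and H4 aug3.g17400 had 1137 and 1124 RPKM at st4, against 2430.4 and 3372 RPKM at st3 (log2 change -1.34, adjusted p = 0.0064). By contrast in level only, H2A aug3.g7601 had 1363 and 1771 RPKM at st4, against 1042 and 939.7 RPKM at st3 (adjusted p = 0.21). Of the replication-independent H3.3 gene models, aug3.g1955 had 460.0 and 453 RPKM at st4, against 641 and 831 RPKM at st3 (adjusted p = 0.021) and aug3.g9473 had 814 and 736 RPKM at st4, against 1011 and 1159 RPKM at st3 (adjusted p = 0.13). Of 18 histone gene models tested, none rose and 7 fell (38.9% lower, beside 26.5% of all), with a median of -0.40. After scaling 2 rose and 5 fell. Scaling ended the calls on H4 (0.11) and H3.3 aug3.g1955 (0.45). H2B was not called without st4 of series 2 (0.068) or st3 of series 1 (0.11), H4 not without st3 of series 2 (0.065), and H3.3 aug3.g1955 not without either st4 library or st3 of series 2 (0.079 to 0.18). The histone list took 0.562% and 0.646% of reads at st4, against 1.09% and 1.10% at st3. Poly(A) selection keeps few replication-dependent histone mRNAs in many animals, so these levels are those of the polyadenylated part.

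The opposite change was seen in the translation machinery. Cytosolic ribosomal proteins took 7.59% and 7.97% of the reads on gene models at st4, against 2.06% and 2.28% at st3. Their share at st1 was 0.715% and 0.728%, and at st5 early it was 10.5% and 9.94%. Of 81 gene models tested 69 rose and 1 fell, beside 8.72% rising among all, with a median change of 1.63, and after scaling 71 rose and 1 fell. This was the largest share of rises among the 37 families compared. The most abundant described transcript at st4 was 40S protein S23, with 4519.6 and 4483 RPKM at st4, against 1026 and 709 RPKM at st3 (log2 change 2.40 ± 0.33, adjusted p = 5.7e-05). Also among the most abundant were the ubiquitin-40S fusion S27a (4095 and 4459.5 RPKM at st4, against 955 and 824 RPKM at st3), which the list did not include, S15Aa (3637 and 4626 RPKM at st4, against 784 and 352 RPKM at st3) and S10b (3721 and 3712 RPKM at st4, against 988 and 824 RPKM at st3). The largest change was in S18, with 3303 and 3453 RPKM at st4, against 669 and 167 RPKM at st3 (log2 change 3.33 ± 0.60, adjusted p = 0.0006), where the st3 libraries differed from each other but both lay under both st4 libraries. The only fall in the list was that of 60S acidic protein P1 aug3.g4428, with 27.6 and 20.6 RPKM at st4, against 145 and 188 RPKM at st3 (log2 change -2.74, adjusted p = 1.5e-05). The call on S15Aa (0.004) was missed without st3 of series 2 (0.051).

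Initiation and elongation factors followed in part. Of 66 translation factors 29 rose and 8 fell (43.9% and 12.1%, beside 8.72% and 26.5% of all), and 37 and 6 after scaling. Their share of reads was 3.33% and 3.19% at st4, against 1.46% and 1.71% at st3. Elongation factor 1-alpha, which brings tRNAs to the ribosome, had 3110.7 and 2965 RPKM at st4, against 1013 and 1500.4 RPKM at st3 (log2 change 1.30 ± 0.24, adjusted p = 0.00071). Within the initiation factor 3 complex 11 of 19 gene models rose (57.9%, beside 8.72% of all) and none fell. After scaling 13 rose and none fell. Its subunit G had 542 and 535 RPKM at st4, against 230.2 and 123.2 RPKM at st3 (adjusted p = 0.0046, and 0.068 without st3 of series 2). Falls were seen in single copies. The eIF4G-like aug3.g22066 had 5.85 and 0.605 RPKM at st4, against 17.8 and 29.1 RPKM at st3 (log2 change -2.84, adjusted p = 0.00083), and elongation factor 1-beta aug3.g14286 had 77.8 and 47.5 RPKM at st4, against 188 and 250.2 RPKM at st3 (log2 change -1.82, adjusted p = 0.0015). The TCP-1 chaperonin, which folds actin and tubulin, rose in 11 of 13 subunits (84.6%) and in 12 after scaling, with no fall on either scale. Subunit alpha had 225 and 179 RPKM at st4, against 45.1 and 59.1 RPKM at st3 (log2 change 1.94, adjusted p = 0.00035) and subunit zeta 471 and 364 RPKM at st4, against 122.8 and 115 RPKM at st3 (log2 change 1.79, adjusted p = 0.00031). Among all 65 heat shock proteins and chaperonins 18 rose and 11 fell (27.7% and 16.9%, beside 8.72% and 26.5% of all), and 23 and 9 after scaling. The abundant Hsc70-4 had 1009 and 1124 RPKM at st4, against 656 and 1291 RPKM at st3 (adjusted p = 0.73), and Hsp70 B2, named after a heat-inducible gene, had 1.09 and 0.92 RPKM at st4, against 17.9 and 22.1 RPKM at st3 (log2 change -3.38, adjusted p = 3.3e-06). Of 35 nucleolar proteins, which serve ribosome assembly, 20 rose (57.1%) and none fell, and 25 rose and none fell after scaling. The nucleolar, initiation factor 3 and chaperonin groups were picked after their values were seen.

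**Figure D3:**
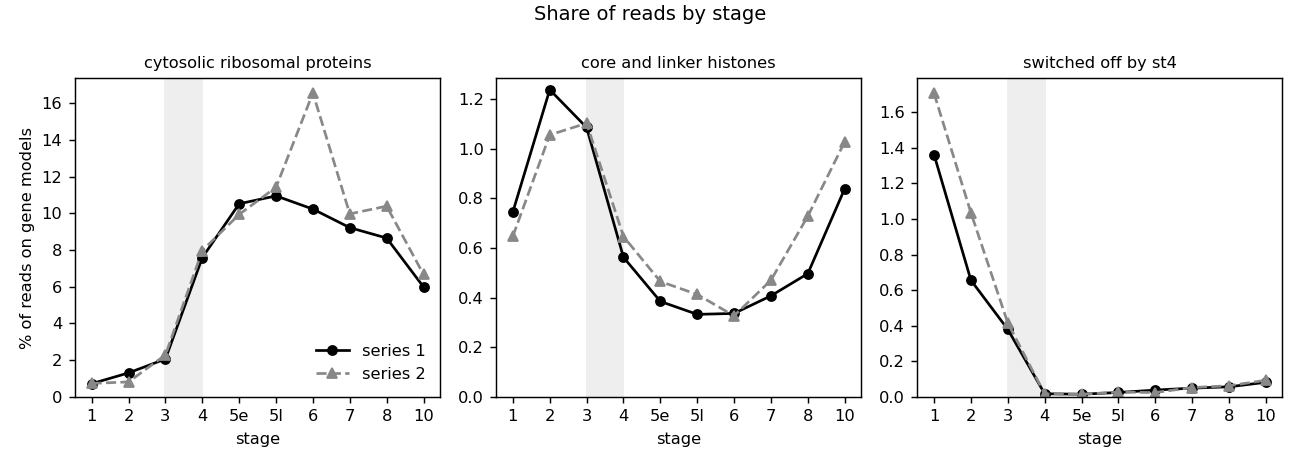
Share of the reads on gene models (percent) taken by each group in the 20 libraries, by stage, with 1 point per library (circles for series 1, triangles for series 2). Cytosolic ribosomal proteins took 7.59% and 7.97% at st4, above the 2.06% and 2.28% at st3, and the gene models switched off by st4 took under 0.02% at st4.

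Other household families had far fewer rises, and the balance of their calls shifted with the scale, as it did for all gene models. After scaling 16.6% of all gene models were higher and 21.0% lower, the shares to set beside the scaled counts here. Mitochondrial ribosomal proteins had 7 rises and 9 falls among 71 gene models as deposited (9.86% and 12.7%, beside 8.72% and 26.5% of all) and 21 and 4 after scaling. The respiratory chain had 3 and 8 among 63, and 6 and 4 after scaling, and tRNA ligases had 4 and 7 among 50, and 7 and 5 after scaling. Lysine tRNA ligase was one of the rises, with 359.7 and 279.6 RPKM at st4, against 124 and 105 RPKM at st3 (adjusted p = 0.0088, and 0.069 without st4 of series 1 or 0.06 without st3 of series 2). Mitochondrial cytochrome c oxidase subunit 3-like transcripts were among the most abundant at both stages, with 2869 and 4917 RPKM at st4, against 3233 and 3440.0 RPKM at st3 (adjusted p = 0.79). Splicing factors had 6 rises and 5 falls among 86 gene models as deposited and 17 and 1 after scaling. Of 38 proteasome subunits 4 rose and 5 fell, and 5 rose and none fell after scaling. Non-ATPase subunit 6 had 173 and 179 RPKM at st4, against 62.3 and 54.5 RPKM at st3 (log2 change 1.58, adjusted p = 9.2e-05) and subunit 13 had 121 and 117 RPKM at st4, against 47.3 and 50.2 RPKM at st3 (log2 change 1.27, adjusted p = 0.00014). A copy of the core subunit alpha type 6 switched on, with 7.3 and 8.16 RPKM at st4, against 0.422 and 0.349 RPKM at st3 (log2 change 2.65, adjusted p = 1.5e-06), while the abundant beta type 5 had 257 and 282 RPKM at st4, against 284 and 225 RPKM at st3 (adjusted p = 0.81). Ubiquitin ligases had more falls on both scales, with 6 rises and 41 falls among 106 gene models (38.7% lower, beside 26.5% of all), and 11 and 32 after scaling. The RHC1A-like ligase aug3.g19992 was one of the most abundant st3 transcripts, with 503 and 712 RPKM at st4, against 3168 and 2843 RPKM at st3 (log2 change -2.32, adjusted p = 0.00012). A repetitive proline-rich protein of similar abundance had 352 and 539 RPKM at st4, against 1916 and 3427 RPKM at st3 (log2 change -2.55, adjusted p = 2.7e-05).

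**Figure D4:**
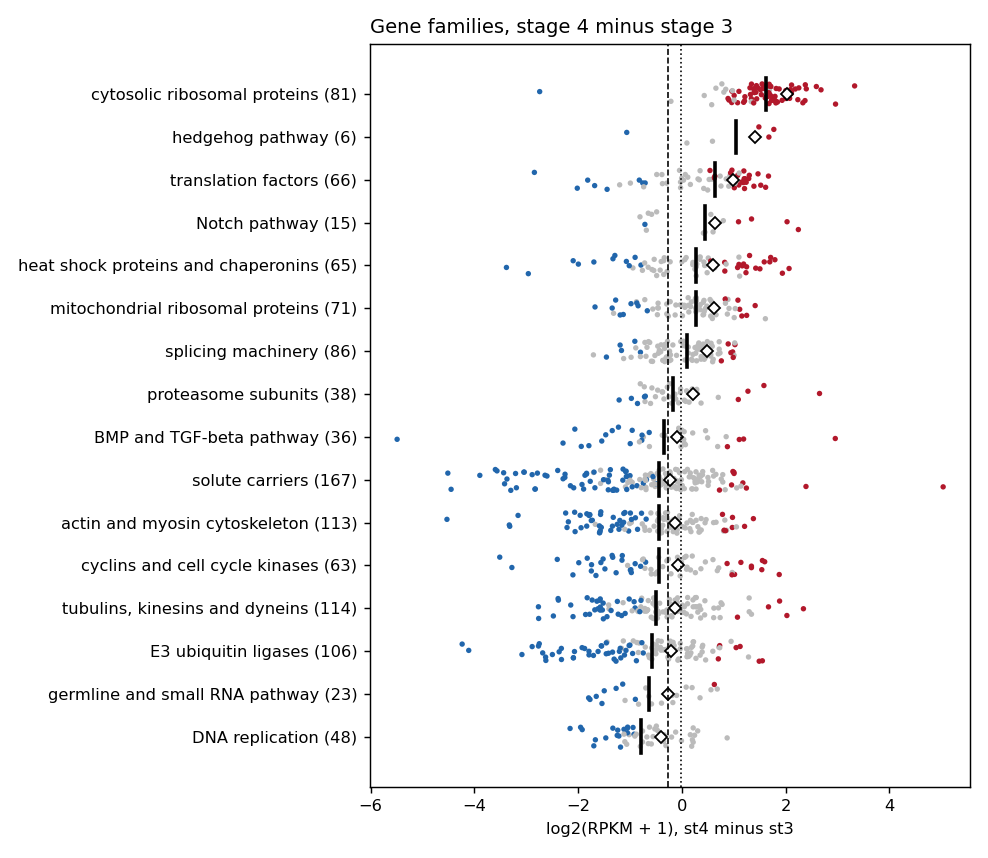
Change from st3 to st4 (log2(RPKM + 1), st4 minus st3) of every tested member of selected gene families, with 1 point per gene model, red for higher at st4, blue for lower and grey for not called. Bars are family medians as deposited, diamonds are medians after scaling, and the dashed and dotted lines are the medians of all gene models, -0.26 and -0.011.

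New transcripts at st4 were few but steep. By the mirror rule, at most 1 RPKM in both st3 libraries and at least 5 RPKM in both st4 libraries, 22 gene models switched on (0.164% of those tested). There were 11 at an upper level of 10 RPKM and 12 at a lower level of 0.5 RPKM, and 29 to 38 with 1 library of either stage left out. Of these, 21 were under 1 RPKM in both st1 libraries, 21 had at least 5 RPKM in both st5 early libraries, and 16 (72.7%) still had it at st10. Their median level was 16.3 RPKM at st4, against 0.353 RPKM at st3. The largest change was that of BTB/POZ domain-containing protein 9-like aug3.g25858 (scaffold 125, 241076 to 304027, plus strand), a protein-protein adaptor family, with 38.2 and 53.9 RPKM at st4, against 0.146 and 0.376 RPKM at st3 (log2 change 5.21 ± 0.37, adjusted p = 1.2e-07). It averaged 118 RPKM at st5 early and 0.278 RPKM at st10, so it was transient. Transport and lipid genes made up part of the set. An alpha-tocopherol transfer protein, a vitamin E carrier, had 31.8 and 45.9 RPKM at st4, against 0.0683 and 0.0755 RPKM at st3 (log2 change 5.20 ± 0.33, adjusted p = 4.6e-08), and an equilibrative nucleoside transporter had 29.4 and 42.9 RPKM at st4, against 0.146 and 0.0805 RPKM at st3 (log2 change 5.04 ± 0.24, adjusted p = 6.1e-09). Sialin-like, a lysosomal exporter of sialic acid in mammals, had 20 and 22.1 RPKM at st4, against 0.404 and 0.447 RPKM at st3 (log2 change 3.95, adjusted p = 2.1e-07). A pair of adjacent gene models annotated as acetoacetyl-CoA synthetase, which activates a ketone body, had 16.8 and 13.4 RPKM at st4, against 0.0988 and 0.218 RPKM at st3 and 9.11 and 8.2 RPKM at st4, against 0.0549 and 0.911 RPKM at st3. They may be parts of 1 gene. Long-chain fatty acid CoA ligase 6 had 9.19 and 8.09 RPKM at st4, against 0.0849 and 0.563 RPKM at st3 (log2 change 2.89, adjusted p = 1.4e-05). A short gene model annotated as a type II keratin had 28.1 and 106 RPKM at st4, against 0.631 and 0.698 RPKM at st3 (log2 change 5.07, adjusted p = 0.00014), with the st4 libraries far apart from each other.

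Other steep rises from low levels were in single genes of metabolism, proteolysis and ion transport, a mixed set of which only the fatty acid-binding proteins and cathepsins are in the yolk use list. Hepatic-type arginase, which splits arginine, had 70.5 and 81.9 RPKM at st4, against 2.18 and 1.69 RPKM at st3 (log2 change 4.72 ± 0.31, adjusted p = 5.6e-08). Fatty acid-binding proteins, which carry lipids within cells, had 135 and 161 RPKM at st4, against 3.64 and 6.17 RPKM at st3 (log2 change 4.69 ± 0.43, adjusted p = 1.3e-06) in aug3.g21231 and 87.1 and 136 RPKM at st4, against 2.28 and 7.93 RPKM at st3 (log2 change 4.34, adjusted p = 1.4e-06) in aug3.g24515. Cathepsin L1-like proteases of the lysosome had 175 and 241 RPKM at st4, against 5.38 and 10.8 RPKM at st3 (log2 change 4.57 ± 0.40, adjusted p = 8.1e-07) in aug3.g6432 and 91.1 and 84.9 RPKM at st4, against 4.98 and 4.59 RPKM at st3 (log2 change 3.94, adjusted p = 8.6e-06) in aug3.g9137. Potassium channels of subfamily K, which set the resting membrane potential, had 71.3 and 67 RPKM at st4, against 2.23 and 2.58 RPKM at st3 (log2 change 4.37 ± 0.22, adjusted p = 9.1e-09) in aug3.g9228 and 24.7 and 30 RPKM at st4, against 0.287 and 1.27 RPKM at st3 (log2 change 4.05, adjusted p = 5.4e-07) in aug3.g21244. All of these lay apart between the stages in both series, which their choice as large called rises favours, so it is no separate support. As a list, the 49 yolk use gene models tested had 6 rises and 10 falls (12.2% and 20.4%, beside 8.72% and 26.5% of all), and 12 and 8 after scaling, and their summed level in the table was 1150 and 1232 RPKM at st4, against 657 and 774 RPKM at st3.

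Among transcription factors, those of the TALE homeodomain class, cofactors of Hox proteins, held several rises. Meis2 aug3.g13867 (scaffold 1742, 53410 to 174714, minus strand) had 133 and 157 RPKM at st4, against 2.54 and 3.81 RPKM at st3 (log2 change 5.14 ± 0.36, adjusted p = 1.1e-07). A second gene model of the same gene ID upstream on that scaffold, aug3.g13868, had 40.6 and 60.7 RPKM at st4, against 0.87 and 1.98 RPKM at st3 (log2 change 4.42 ± 0.27, adjusted p = 3.7e-08). Extradenticle, the partner of Meis proteins, rose in 3 of 5 gene models named so: aug3.g20631 had 38.9 and 42.1 RPKM at st4, against 3.85 and 3.2 RPKM at st3 (log2 change 3.20 ± 0.21, adjusted p = 5.4e-08), aug3.g20467 had 22.1 and 33.9 RPKM at st4, against 2.74 and 6.96 RPKM at st3 (log2 change 2.38, adjusted p = 0.00025) and aug3.g13538 had 24.4 and 23.8 RPKM at st4, against 5.88 and 5.96 RPKM at st3 (log2 change 1.86, adjusted p = 0.0023). The other 2, neighbours of each other, were not called, with 19 and 25.6 RPKM at st4, against 14.4 and 32.8 RPKM at st3 (adjusted p = 0.99) in aug3.g27747 and 42 and 38.6 RPKM at st4, against 46.7 and 73.7 RPKM at st3 (0.18) in aug3.g27748. Meis1 aug3.g3111 had 68.4 and 46.4 RPKM at st4, against 27.4 and 45.8 RPKM at st3 (adjusted p = 0.21, and 0.035 after scaling). An engrailed-like homeobox gene, annotated as ceh-16 after a nematode gene, switched on (scaffold 36, 2083470 to 2092858, minus strand), with 48.1 and 33.4 RPKM at st4, against 0.281 and 0.994 RPKM at st3 (log2 change 4.68 ± 0.37, adjusted p = 2.9e-07). Homeobox genes as a whole had 7 rises and 14 falls among 105 tested (6.67% and 13.3%, both under the 8.72% and 26.5% of all). Their median was -0.09, and 10 rose and 9 fell after scaling. The spider's *orthodenticle*, a gene of the future head at the germ disc rim, had 0.97 and 0.494 RPKM at st4, against 4.53 and 8.59 RPKM at st3 (log2 change -2.09 ± 0.28, adjusted p = 4.5e-05) after a mean of 6.75 RPKM at st2, and averaged 14.3 RPKM at st5 early, so st4 fell between higher stages. The Hox genes *labial* and *Deformed* and the limb gene *Distal-less* were not called. *Labial* had 30.2 and 41.4 RPKM at st4, against 25.7 and 14 RPKM at st3 (adjusted p = 0.099, and 0.013 after scaling), *Deformed* had 5.21 and 8.01 RPKM at st4, against 7.32 and 10.8 RPKM at st3 (0.51) and *Distal-less* had 71.8 and 50.1 RPKM at st4, against 38.3 and 37.7 RPKM at st3 (0.31).

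Genes of mesoderm and endoderm moved both ways. Adjacent gene models annotated as *snail*, a zinc finger repressor needed for mesoderm formation in flies, switched on together on scaffold 11. aug3.g416 had 21.1 and 24.7 RPKM at st4, against 0.458 and 0.939 RPKM at st3 (log2 change 3.82 ± 0.31, adjusted p = 3.4e-07) and aug3.g417 had 18.1 and 26.9 RPKM at st4, against 0.283 and 0.483 RPKM at st3 (log2 change 4.07 ± 0.44, adjusted p = 6.4e-06). *Forkhead*, an endoderm factor annotated as silk gland factor 1-like and outside the lists, had 32.8 and 29 RPKM at st4, against 3.49 and 4.87 RPKM at st3 (log2 change 2.63 ± 0.25, adjusted p = 2.0e-06). *Twist*, a mesoderm bHLH factor, was lower, with 4.16 and 0.797 RPKM at st4, against 10.5 and 9.99 RPKM at st3 (log2 change -1.88 ± 0.58, adjusted p = 0.021), but its call was missed without any 1 of 3 libraries (0.24 without st4 of series 2, 0.078 and 0.074 without st3 of series 1 and 2). Of the T-box factors, H15-1 had 13.1 and 10.1 RPKM at st4, against 2.49 and 3.97 RPKM at st3 (log2 change 1.59, adjusted p = 0.0004) and a TBX3-like factor had 5.68 and 6.74 RPKM at st4, against 0.659 and 1.09 RPKM at st3 (log2 change 1.95, adjusted p = 0.0022). Achaete-scute homolog 1a, a proneural bHLH factor, had 3.28 and 6.75 RPKM at st4, against 40.8 and 68.7 RPKM at st3 (log2 change -3.23, adjusted p = 0.00052), and forkhead box N4-like had 7.4 and 7.97 RPKM at st4, against 86.7 and 119.8 RPKM at st3 (log2 change -3.57, adjusted p = 2.0e-06). Over the 51 gene models of forkhead, T-box, GATA, Sox and bHLH type, *snail* included, 10 rose and 6 fell (19.6% and 11.8%, beside 8.72% and 26.5% of all), and 13 and 4 after scaling. Sox genes split. Sox-2-like had 2.45 and 1.22 RPKM at st4, against 0.0591 and 0.0326 RPKM at st3 (log2 change 1.41, adjusted p = 0.00078) and SOX-14 aug3.g8208 had 3.47 and 3.5 RPKM at st4, against 0.219 and 1.18 RPKM at st3 (adjusted p = 0.0069, and 0.085 without st3 of series 1). The abundant Sox-14-like aug3.g24914 had 290.0 and 276 RPKM at st4, against 117 and 207 RPKM at st3 (0.1, and 0.008 after scaling), and SOX-11-like aug3.g12938 had 30.4 and 27.9 RPKM at st4, against 78.5 and 63.6 RPKM at st3 (0.006, and 0.051 after scaling). *Hunchback*, a gap gene, had 17.9 and 16.9 RPKM at st4, against 25.2 and 36.7 RPKM at st3 (0.073) and *odd-paired* had 71.9 and 119.8 RPKM at st4, against 88.1 and 84.6 RPKM at st3 (0.89). Of 17 nuclear receptors 4 rose and 5 fell (23.5% and 29.4%, the falls near the 26.5% of all), and 4 and 4 after scaling. *Seven-up* switched on with 8.88 and 7.8 RPKM at st4, against 0.684 and 0.664 RPKM at st3 (log2 change 2.48, adjusted p = 1.6e-05), the ecdysone receptor had 14.6 and 26 RPKM at st4, against 2.84 and 4.93 RPKM at st3 (log2 change 2.10, adjusted p = 0.00032) and the tailless-type NR2E1 had 22.9 and 16.6 RPKM at st4, against 5.18 and 3.65 RPKM at st3 (log2 change 1.94, adjusted p = 0.00011).

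The hedgehog pathway rose at its ligand and its receptor. *Hedgehog* had 74.2 and 43.1 RPKM at st4, against 17 and 22.5 RPKM at st3 (log2 change 1.49 ± 0.33, adjusted p = 0.0029). *Patched*, the receptor that is also a transcriptional target of the pathway in flies, had 49.8 and 67.8 RPKM at st4, against 19.2 and 15.9 RPKM at st3 (log2 change 1.68 ± 0.31, adjusted p = 0.00066) in aug3.g14374, and 10.7 and 10.9 RPKM at st4, against 1.88 and 3.12 RPKM at st3 (log2 change 1.77, adjusted p = 0.003) in aug3.g24717, a fragment with the same gene ID on another scaffold. *Cubitus interruptus*, the transcription factor at the end of the pathway, had 167 and 109 RPKM at st4, against 81.6 and 97.7 RPKM at st3 (adjusted p = 0.094). It was called after scaling (0.0018) and without st4 of series 2 (0.043). *Smoothened*, the signal transducer, had 22.7 and 26.4 RPKM at st4, against 24.8 and 21 RPKM at st3 (0.78). *Suppressor of fused*, an inhibitor, had 32.1 and 25.3 RPKM at st4, against 54.9 and 67 RPKM at st3 (0.016), a call lost after scaling (0.19) and without either series 2 library (0.12 for st4, 0.11 for st3). These 6 are all gene models of the list that were tested, of 8 in the table.

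In the Notch pathway the ligand and a receptor rose. *Delta* aug3.g25248 had 60.9 and 57.9 RPKM at st4, against 7.11 and 19 RPKM at st3 (log2 change 2.25 ± 0.34, adjusted p = 0.00014), and a second delta-like gene aug3.g12734 had 16.3 and 18.3 RPKM at st4, against 5.75 and 6.71 RPKM at st3 (log2 change 1.34, adjusted p = 0.0037). The Notch receptor aug3.g27737 had 26.2 and 49.8 RPKM at st4, against 5.6 and 11.6 RPKM at st3 (log2 change 2.03 ± 0.39, adjusted p = 0.00096). Another Notch gene model, aug3.g21218, had 38.3 and 32.7 RPKM at st4, against 14.8 and 26.8 RPKM at st3 (adjusted p = 0.076), and it was called with the parents as a block (0.035), after scaling (0.03) and without st3 of series 2 (0.028). *Hairy*, of the HES family of Notch targets and counted with the bHLH factors, had 43.1 and 28 RPKM at st4, against 7.31 and 5.12 RPKM at st3 (log2 change 2.33 ± 0.40, adjusted p = 0.00035). The DNA-binding partner Su(H) had 42.4 and 51.6 RPKM at st4, against 33 and 30 RPKM at st3 (0.11, and 0.0089 after scaling). Jagged-1b, the other ligand type, stayed low, with 0.337 and 0.628 RPKM at st4, against 1.39 and 1.44 RPKM at st3 (0.013). Its call was lost after scaling (0.13), without st4 of series 1 (0.11) and without st3 of series 2 (0.057). Of 15 Notch pathway gene models tested 4 rose and 1 fell (26.7% and 6.67%, beside 8.72% and 26.5% of all). After scaling 7 rose and none fell.

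Wnt ligands rose from low levels. *Wnt8*, which acts in posterior development of this spider, had 4.71 and 6.87 RPKM at st4, against 0.252 and 0.127 RPKM at st3 (log2 change 2.50 ± 0.23, adjusted p = 1.3e-06). Wnt-16-like had 4.2 and 10.4 RPKM at st4, against 0.69 and 2.03 RPKM at st3 (adjusted p = 0.0062), a call missed without st4 of series 2 (0.098) or st3 of series 1 (0.071). Receptors changed in different directions. Frizzled-5-like had 35.8 and 30.5 RPKM at st4, against 6.15 and 10.8 RPKM at st3 (log2 change 1.89 ± 0.26, adjusted p = 7.0e-05) and frizzled-4 had 5.72 and 4.31 RPKM at st4, against 0.77 and 0.904 RPKM at st3 (log2 change 1.70, adjusted p = 0.0037), while frizzled-7-like had 7.27 and 6.09 RPKM at st4, against 14.7 and 19.9 RPKM at st3 (log2 change -1.24, adjusted p = 0.0031). The cytoplasmic transducer *dishevelled* had 5.01 and 6.27 RPKM at st4, against 15 and 23.9 RPKM at st3 (log2 change -1.59, adjusted p = 0.0029). *Armadillo*, the beta-catenin of the pathway, had 104 and 125 RPKM at st4, against 101 and 148 RPKM at st3 (0.78), and axin-2-like, its inhibitor, had 119 and 93.7 RPKM at st4, against 101 and 148 RPKM at st3 (0.65). In all 4 of 20 Wnt gene models rose and 2 fell (20.0% and 10.0%, beside 8.72% and 26.5% of all), and 5 and 2 after scaling.

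BMP and TGF-beta ligands moved in both directions. While the BMP10-like transcript of scaffold 2360 was lost, its neighbour *decapentaplegic* (scaffold 2360, 31486 to 100705, plus strand) had 8.78 and 6.1 RPKM at st4, against 2.83 and 4.55 RPKM at st3 (log2 change 0.85 ± 0.33, adjusted p = 0.059). It was called with the parents as a block (0.047), after scaling (0.0053) and at a pseudocount of 0.1 (0.042). A BMP2-A-like ligand switched on, with 8.11 and 8.99 RPKM at st4, against 0.216 and 0.239 RPKM at st3 (log2 change 2.96 ± 0.21, adjusted p = 1.4e-07). *Short gastrulation*, an extracellular antagonist of Dpp that the list did not include, had 17.6 and 11.8 RPKM at st4, against 8.7 and 3.22 RPKM at st3 (0.015), and BAMBI, a pseudoreceptor, had 6.56 and 3.25 RPKM at st4, against 0.812 and 2.41 RPKM at st3 (0.015). Both calls were missed without 1 library: 0.12 and 0.17 without st4 of series 1, 0.22 for the first without st3 of series 2 and 0.17 for BAMBI without st3 of series 1. Type II BMP receptor gene models, which lie side by side, had 9 and 8.65 RPKM at st4, against 4.4 and 4.3 RPKM at st3 (log2 change 0.88, adjusted p = 0.0088) in aug3.g24026 and 9.01 and 8.71 RPKM at st4, against 2.73 and 4.62 RPKM at st3 (0.011, and 0.051 to 0.11 without either st4 library or st3 of series 1) in aug3.g24027. Activin receptor type 1-like had 3.91 and 4.27 RPKM at st4, against 25.4 and 22.5 RPKM at st3 (log2 change -2.29 ± 0.29, adjusted p = 3.1e-05). The effector *Mad* had 98.1 and 97.9 RPKM at st4, against 119 and 128 RPKM at st3 (0.42) and Smad4 had 22.8 and 20.2 RPKM at st4, against 34.9 and 32.7 RPKM at st3 (0.02, a call lost after scaling at 0.26 and without st4 of series 2, at 0.13, or either st3 library, at 0.091 and 0.058). Over the pathway's 36 gene models 4 rose and 14 fell (11.1% and 38.9%), beside 8.72% and 26.5% of all, and 7 rose and 11 fell after scaling.

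**Figure D5:**
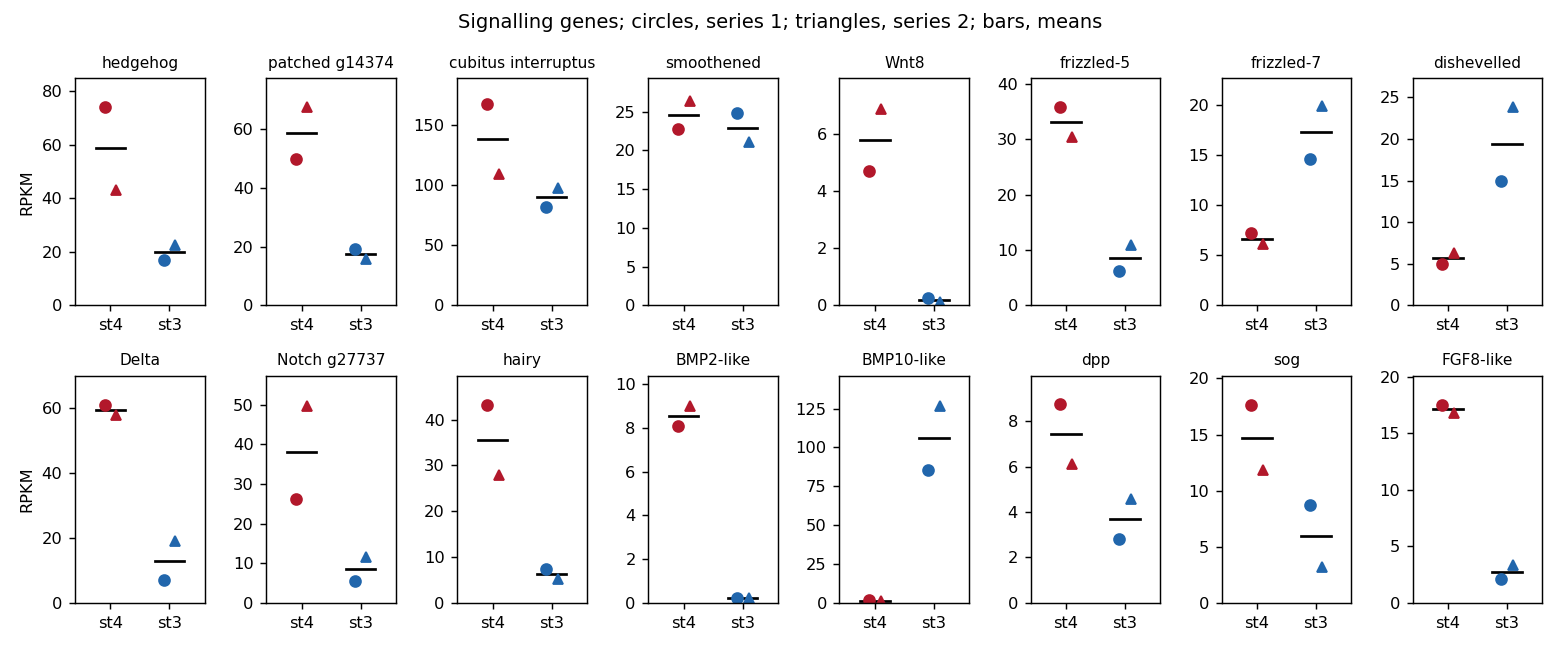
RPKM of signalling genes in each st4 library (left) and st3 library (right), with 1 point per library (circles for series 1, triangles for series 2), a bar for the mean and n = 2 a stage. *Hedgehog*, with 74.2 and 43.1 RPKM at st4 against 17.0 and 22.5 RPKM at st3, and *Delta*, with 60.9 and 57.9 RPKM against 7.11 and 19.0 RPKM, show no overlap between the stages.

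In receptor tyrosine kinase signalling the ligand FGF8-like had 17.5 and 16.8 RPKM at st4, against 2.1 and 3.34 RPKM at st3 (log2 change 2.30 ± 0.46, adjusted p = 0.0013). The receptor FGFR3-like had 7.36 and 3.27 RPKM at st4, against 34.6 and 18.5 RPKM at st3 (log2 change -2.14 ± 0.45, adjusted p = 0.0018), on the way down from 614 RPKM at st1, and FGFR4-like had 8.51 and 6.22 RPKM at st4, against 4.44 and 5.06 RPKM at st3 (adjusted p = 0.12, and 0.0061 after scaling). The Ets factor Elk-1, a target of the MAP kinase cascade, had 31.8 and 40.8 RPKM at st4, against 9.62 and 14.9 RPKM at st3 (0.0048, and 0.052 without st3 of series 1). Of 27 gene models of the list 2 rose and 4 fell (7.41% and 14.8%, both under the 8.72% and 26.5% of all), and 4 and 3 after scaling. Among 7 Toll receptors none rose and 2 fell on either scale, 28.6% beside 26.5% of all.

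Cell cycle genes moved both ways. Cyclin B, which drives entry into mitosis, had 335 and 375 RPKM at st4, against 1269 and 1112 RPKM at st3 (log2 change -1.74 ± 0.21, adjusted p = 2.1e-05). Wee1-like kinase 2, the brake on mitotic entry, had 111 and 107 RPKM at st4, against 29 and 28.9 RPKM at st3 (log2 change 1.88 ± 0.28, adjusted p = 0.00013). The kinases of transcription also went both ways: CDK9 had 237 and 252 RPKM at st4, against 98.2 and 70.6 RPKM at st3 (adjusted p = 0.0079, and 0.071 without st3 of series 2) and its partner cyclin-T2 had 27.4 and 27.7 RPKM at st4, against 10.4 and 10.2 RPKM at st3 (log2 change 1.34, adjusted p = 0.00033), while CDK8 of the Mediator had 22.2 and 14.2 RPKM at st4, against 191 and 238 RPKM at st3 (log2 change -3.51, adjusted p = 3.9e-05). Of 63 cyclins and cell cycle kinases 10 rose and 23 fell (15.9% and 36.5%, both above the 8.72% and 26.5% of all), and 15 and 16 after scaling. DNA replication genes had no rise and 17 falls among 48 (35.4% lower), with a median of -0.78, and 1 rise and 13 falls after scaling. The clamp loader subunits RFC1 and RFC4 had 16.7 and 12.6 RPKM at st4, against 65.2 and 70.9 RPKM at st3 (log2 change -2.16, adjusted p = 1.5e-05) and 19 and 12.3 RPKM at st4, against 55.1 and 70.2 RPKM at st3 (log2 change -1.95, adjusted p = 0.00013), and RFC2, the most abundant gene of the list, had 124 and 77.9 RPKM at st4, against 171 and 129 RPKM at st3 (0.45).

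Kinesin heavy chains, motors that walk along microtubules, included several that rose. Of the 4 that did, 3 lie on scaffold 626. aug3.g5179 had 537 and 790.4 RPKM at st4, against 129 and 239.7 RPKM at st3 (log2 change 1.88 ± 0.49, adjusted p = 0.0075) and aug3.g5180 had 243 and 228 RPKM at st4, against 56.5 and 57.6 RPKM at st3 (log2 change 2.02 ± 0.38, adjusted p = 0.00078), while aug3.g5178 had 431 and 518 RPKM at st4, against 202 and 249 RPKM at st3 (adjusted p = 0.037). The other, aug3.g11117 (scaffold 1264, 1 to 35575, plus strand), had 112 and 105 RPKM at st4, against 14.7 and 28.4 RPKM at st3 (log2 change 2.34 ± 0.48, adjusted p = 0.0016). Their course was brief: aug3.g5179 averaged 0.0686 RPKM at st1 and 0.741 RPKM at st7, and aug3.g11117 averaged 0.0616 RPKM at st1 and 0.113 RPKM at st10. aug3.g5178 was missed without any 1 of the 4 libraries (0.073 to 0.18), and aug3.g5179 without st4 of series 2 (0.072) or st3 of series 1 (0.081). Of 9 kinesin heavy chain gene models 4 rose and 1 fell (44.4% and 11.1%, beside 8.72% and 26.5% of all), and 4 and 1 after scaling. This group was chosen after its values were seen. Tubulins, kinesins and dyneins as a whole had 5 rises and 32 falls among 114 (28.1% lower, near the 26.5% of all), and 11 and 27 after scaling. The adaptor TRAK1-like, which links mitochondria to kinesin, had 7.33 and 5.12 RPKM at st4, against 47 and 48 RPKM at st3 (log2 change -2.77, adjusted p = 4.0e-07), and the centrosome protein CEP192 had 8.78 and 5.17 RPKM at st4, against 51 and 52.4 RPKM at st3 (log2 change -2.76, adjusted p = 4.0e-05). Actin and myosin genes had 7 rises and 42 falls among 113 (37.2% lower), and 9 and 36 after scaling, with filamin A-interacting protein at 7.08 and 10 RPKM at st4, against 205 and 229.8 RPKM at st3 (log2 change -4.53, adjusted p = 1.2e-08).

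In adhesion, the apical polarity protein Crumbs-like had 3 and 2.48 RPKM at st4, against 28.6 and 34.8 RPKM at st3 (log2 change -3.13, adjusted p = 4.5e-07), on 12 and 9 reads at st4. Innexin 2, a gap junction channel, had 315 and 290.0 RPKM at st4, against 84.4 and 82.4 RPKM at st3 (log2 change 1.85 ± 0.32, adjusted p = 0.00042), and the Fat-like cadherin had 7.01 and 6.61 RPKM at st4, against 1.29 and 1.11 RPKM at st3 (log2 change 1.83, adjusted p = 0.00031). Pt2cad, a neural-type cadherin, had 19 and 18.6 RPKM at st4, against 33.2 and 33.7 RPKM at st3 (adjusted p = 0.0069, and 0.13 after scaling). Together cadherins, catenins and junction proteins had 7 rises and 16 falls among 46 (15.2% and 34.8%, beside 8.72% and 26.5% of all), and 12 and 11 after scaling. Integrin beta-PS-like, a receptor for matrix, had 7.37 and 9.56 RPKM at st4, against 32.3 and 54.6 RPKM at st3 (log2 change -2.19, adjusted p = 5.7e-05). Papilins, matrix proteins grouped after their values were seen, fell in all 3 gene models tested, among them aug3.g4424 with 23.9 and 17.2 RPKM at st4, against 417.4 and 447 RPKM at st3 (log2 change -4.34, adjusted p = 3.7e-08) and aug3.g4726 with 9.67 and 9.87 RPKM at st4, against 103 and 91.4 RPKM at st3 (log2 change -3.18, adjusted p = 8.6e-07). Basement membrane and integrin genes had 3 rises and 8 falls among 39 (7.69% and 20.5%, both under the shares of all), and 4 and 6 after scaling.

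For the machinery that removes mRNA, the CCR4-NOT deadenylase had no rise and 4 falls among 10 gene models as deposited. Of all gene models, 8.72% rose and 26.5% fell. After scaling the complex had 1 rise and 4 falls. Its subunit 6-like had 9.54 and 9.59 RPKM at st4, against 75.9 and 93.9 RPKM at st3 (log2 change -3.02, adjusted p = 2.2e-06). The PAN deadenylase had 3.01 and 2.58 RPKM at st4, against 11.8 and 11.4 RPKM at st3 (log2 change -1.73, adjusted p = 0.0002). The exosome, which degrades RNA from its 3′ end, had 3 rises and 1 fall among 9 (33.3% and 11.1%, beside 8.72% and 26.5% of all). After scaling it had 4 rises and no fall. RRP45-like had 112 and 138 RPKM at st4, against 59.6 and 42.7 RPKM at st3 (adjusted p = 0.0083) and CSL4 had 157 and 164 RPKM at st4, against 79.9 and 63.9 RPKM at st3 (0.0058). RRP45-like was missed without either series 2 library (0.07 and 0.081) and CSL4 without st3 of series 2 (0.055). Pumilio 3-like, an RNA-binding protein, had 202 and 169 RPKM at st4, against 82 and 86.5 RPKM at st3 (log2 change 1.12, adjusted p = 0.0015). The list of 38 mRNA decay genes had 5 rises and 10 falls (26.3% lower, beside 26.5% of all), 7 and 8 after scaling, and its CCR4-NOT and exosome subsets were picked after values were seen. Germline and small RNA genes had 1 rise and 8 falls among 23 (34.8% lower, beside 26.5% of all), and 5 and 7 after scaling. Tudor domain proteins 7 and 5, of the piRNA pathway in other animals, had 31 and 31.8 RPKM at st4, against 95.1 and 131 RPKM at st3 (log2 change -1.80, adjusted p = 1.9e-05) and 12.9 and 11 RPKM at st4, against 38.7 and 40.7 RPKM at st3 (log2 change -1.65, adjusted p = 9.8e-05), and Argonaute-4-like had 32.4 and 27.7 RPKM at st4, against 95.5 and 115 RPKM at st3 (log2 change -1.77, adjusted p = 8.7e-05). Piwi-like protein 1, the most abundant, had 835 and 646 RPKM at st4, against 397 and 624 RPKM at st3 (0.17, and 0.035 after scaling). Chromatin regulators had 16 rises and 24 falls among 87 (18.4% and 27.6%, beside 8.72% and 26.5% of all), and 22 and 18 after scaling. The Polycomb protein Sfmbt had 1.13 and 0.533 RPKM at st4, against 13.8 and 23.6 RPKM at st3 (log2 change -3.40, adjusted p = 2.2e-06).

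Solute carriers, the membrane transporters, had 9 rises and 58 falls among 167 (5.39% and 34.7%, beside 8.72% and 26.5% of all), and 18 and 50 after scaling. An organic cation transporter had 1.28 and 1.73 RPKM at st4, against 51.2 and 61.3 RPKM at st3 (log2 change -4.51, adjusted p = 3.0e-05) and a sodium-dependent glucose transporter 1.44 and 1.14 RPKM at st4, against 42.4 and 56.5 RPKM at st3 (log2 change -4.45, adjusted p = 7.9e-08), whereas the mitochondrial carrier 40 of family 25 had 389 and 349 RPKM at st4, against 178 and 188 RPKM at st3 (adjusted p = 0.013, and 0.078 without st4 of series 1 or 0.062 without st3 of series 1). Cytochrome P450s had 3 rises and 10 falls among 43 (6.98% and 23.3%, both under the shares of all), and 4 and 9 after scaling. P450 302a1, the ecdysteroid enzyme Disembodied of insects, had 13.4 and 15.4 RPKM at st4, against 90.8 and 218 RPKM at st3 (log2 change -3.21 ± 0.43, adjusted p = 4.6e-05). In the lists of later tissues, muscle genes had no rise and 7 falls among 20, nerve genes 1 and 12 among 40, and cuticle genes none and 6 among 14, which are 35.0%, 30.0% and 42.9% lower beside 26.5% of all. After scaling they had 2 rises and 5 falls, 3 and 10, and none and 6. ELAV-like protein 3, a neuronal RNA-binding protein in vertebrates, was the steepest of the nerve list, with 2.47 and 2 RPKM at st4, against 56.6 and 65.8 RPKM at st3 (log2 change -4.27, adjusted p = 7.6e-08). None of the 9 hemocyanin and 3 transposon-derived gene models tested was called. Of 42 gene models with a spider gene name in RefSeq 10 rose and 3 fell (23.8% and 7.14%, beside 8.72% and 26.5% of all). After scaling 14 rose and 2 fell.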

How the data were processed

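Poly(A) RNA-Seq libraries of st4 and st3 whole embryos were compared. The authors' reads, after quality trimming, went through BLAT against Ptep_1.0 and a filter that kept long, near-identical and unique matches. Strand-aware counts on AUGUSTUS gene models (htseq-count of HTSeq 0.6.1p1, per the submitters' processing notes) were turned by the authors into the deposited RPKM. Coordinates are scaffolds of Ptep_1.0. The 20 RPKM columns of the table were matched to samples by stage and replicate number, with 0 columns of values not used. The coverage tracks were not used here.

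RPKM values are not counts, so log2(RPKM + 1) of gene models at 1 RPKM or more in at least 2 samples was fitted with limma 3.58.1 in R 4.3.3 (10 stage means, all 20 samples, 10 residual degrees of freedom, eBayes with trend), and st4 was set against st3 with Benjamini-Hochberg adjustment over 13375 gene models. All stages share the estimate of spread. Median-ratio factors, by which RPKM values were divided, came from 10686 gene models and were 0.9607 and 0.8177 for st4 and 1.1936 and 1.129 for st3. Read totals and exon lengths were recovered from the RPKM values and tested on simulated data, as was the fit. Python 3.11.15 with pandas 2.3.3, numpy 2.4.6 and matplotlib 3.10.9 served for the rest.

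Replicate numbers mark the pair of parents, and the differences between the series at st4 and st3 correlated at r = 0.326 across gene models. Families were lists of words in the deposited descriptions, and paralogs and gene models that share a gene ID are uncertain. Spider gene names came from RefSeq through gene IDs (38 of 39 named entries matched). The members, lists and tests were chosen with earlier results of these data known. Named were the 12 largest called falls and rises at 20 RPKM or more with a description, unaffected by scaling, up to 3 called members at 5 RPKM or more and the most abundant member of each family, the 5 most abundant at each stage, and members of the signalling and transcription factor lists. A gene model that this rule picks is not reported here. Of 174 gene models named, 37 were chosen after their values were seen: all ABHD11 gene models but aug3.g9729, aug3.g9728, aug3.g9725 and aug3.g3607, the kinesin heavy chains, the histones except aug3.g12364, aug3.g12366 and aug3.g17400, the exosome, chaperonin and initiation factor 3 subunits, wee1, CDK9, cyclin-T2, and in the sets switched on and off the sialin, acetoacetyl-CoA synthetase, CoA ligase, bcl-2, copper uptake and GILT gene models, with cathepsin aug3.g9137 and channel aug3.g21244, and, by their RefSeq names, *short gastrulation*, *odd-paired*, *hunchback*, *forkhead* and Pt2cad. The alternatives tried were other pseudocounts, filters and on and off levels, median-ratio scaling, the replicate block, only st3 and st4, voom on recovered reads, and leaving out single libraries.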

Additional observations from a re-analysis of the deposited data

Results flagged for a closer look

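In 8 of the named gene models the change from st3 to st4 ran in opposite directions in the series. The difference between the series was not tested in any of them, and none was called. On the log2(RPKM + 1) scale, axin-2-like aug3.g6117 changed by 0.23 in series 1 and by -0.65 in series 2. Hsc70-4 aug3.g27068 changed by 0.62 and by -0.2, and *armadillo* aug3.g10093 by 0.04 and by -0.24. Extradenticle-like aug3.g27747 changed by 0.38 and by -0.34. The other direction was measured in proteasome beta type 5 aug3.g8171 (-0.14 in series 1, 0.33 in series 2), *smoothened* aug3.g8490 (-0.12 and 0.31), *odd-paired* aug3.g12202 (-0.29 and 0.5) and cytochrome c oxidase subunit 3-like aug3.g20563 (-0.17 and 0.52).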

How the results depend on the processing

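With median-ratio scaling 2222 gene models were higher, 44.1% of calls, and the median change was -0.011. On that scale 100 gene models switched off and 31 switched on. With the parents as a replicate block there were 1421 higher and 3947 lower gene models, and block and scaling together gave 2534 higher, a share of 45.2% and a median of -0.011. The block called 2 further named gene models and changed no other call among the 174. The median was -0.38 at a pseudocount of 0.1, -0.051 with no filter and -0.4 with voom on recovered reads, which called the same named gene models. Leaving out single libraries of st4 or st3 gave 697 to 871 higher and 2451 to 3076 lower gene models, a share of 19.3% to 24.0%, medians of -0.339 to -0.197, and 182 to 240 gene models switched off and 29 to 38 switched on, since 1 library then had to pass the level. The sets fell to 52 off and 11 on at an on level of 10 RPKM, and to 55 off and 12 on at an off level of 0.5 RPKM. A fit of st3 and st4 only called 829 higher and 2666 lower and lost 14 named calls. Without st6 of series 2, a choice made after the data were seen, 1535 were higher and 3980 lower, and 2684 were higher with scaling. Scaling lost 8 named calls and added 9. Family medians moved by more than their spread in 26 of 37 families under scaling, 17 under either a minimum of 5 RPKM or a pseudocount of 0.1, and 19 under voom. The pseudocount of 0.1 lost 2 named calls and added 1. The median of 10 of the 37 families changed sign under at least 1 alternative: 5 under scaling (respiratory chain, tRNA ligases, proteasome, chromatin regulators and Wnt pathway), 3 at a minimum of 5 RPKM, 2 each at a pseudocount of 0.1 and under voom, and 1 to 4 without a single library. No called named gene model changed direction under these alternatives, while 9 that were not called did.

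With n = 2 a stage, small changes could not be called, and values near 0.2 RPKM rest on about 3 reads. The planned look at promoter motifs was not run because no promoter sequences were used here.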
